A study of Mus musculus with 12 samples.

Results

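Myc and 9 adhesion, matrix and coagulation genes that serum or stretch can induce (Thbs1, F3, Itga5, Frmd6, Srf, Ctgf, Cyr61, Ankrd1 and Amotl2) were examined in mouse testis. The members were taken by gene symbol, and all 10 were present among the 20718 genes of the expression table. Myc and its companions were chosen by name with earlier results of these data known. Among these was the difference between the control groups F0_3NC and F0_5NC, which is described here and not tested. The libraries came from whole testes of IRC mice (spelled ICR in the study's methods). All males received lentivirus into the testis at 4 weeks of age, were raised for 5 weeks to 9 weeks of age, mated for 4 days and were kept for another 4 days. F0_5251KD received virus on the LV3 backbone with 3 mixed shRNAs against the long non-coding RNA lncRNA5251, and F0_3NC received the negative control of that backbone. F0_5251OV received the full length of lncRNA5251 on the LV5 backbone, and F0_5NC received the empty LV5 vector. Each group had 3 libraries. An uninjected group was not analysed here, and every group therefore carried an injection and a virus. Nothing in the labels ties a library to its own animal, and the p-values therefore measure only the spread between these libraries, which may be technical. No row of the table carries the name lncRNA5251, and its level in each library is not reported here.

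MYC is a transcription factor that dimerises with MAX and drives growth and division. Its gene belongs to the immediate early genes, which are transcribed within minutes of a stimulus such as serum, injury or stretch. Serum response factor (SRF) binds the CArG box, and it works with MRTF cofactors, which follow the state of actin, or with ETS cofactors, which follow MAP kinase signalling. YAP and TAZ, the effectors of the Hippo pathway, bind TEAD factors and switch on Ctgf, Cyr61, Ankrd1 and Amotl2, which are the usual readouts of cell stretch. Thrombospondin 1 (Thbs1) and tissue factor (F3) are matrix and coagulation proteins of wounds, and integrin alpha 5 (Itga5) is the fibronectin receptor subunit through which cells grip a wound matrix. In the testis such genes are expressed mainly by somatic cells, among them peritubular, Sertoli, endothelial and interstitial cells.

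Promoter sequence was available in the RefSeq table (GRCm38.p6, whose coordinates are those of mm10) for 7 of the 10 members, namely F3, Cyr61, Amotl2, Frmd6, Itga5, Srf and Ankrd1. Each promoter ran from 250 bases before the start site to 50 bases after it, and 4 motifs were searched on both strands. They were the CArG box, the TEAD motif GGAATG, the AP-1 motif TGANTCA and the E-box CACGTG. The following stretches of 60 bases are shown because they hold the motifs for which these genes are known, with the motif in capitals and the rest in lower case. All read 5′ to 3′ on the strand of the gene.
Srf, chr17:46556203-46556262, minus strand, CArG boxes: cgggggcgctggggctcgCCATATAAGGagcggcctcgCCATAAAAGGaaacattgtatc
F3, chr3:121723377-121723436, plus strand, AP-1 motifs: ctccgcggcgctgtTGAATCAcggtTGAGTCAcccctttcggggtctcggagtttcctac
Cyr61, chr3:145650056-145650115, minus strand, TEAD motif: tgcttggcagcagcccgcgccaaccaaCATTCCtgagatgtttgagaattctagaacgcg
Amotl2, chr9:102717709-102717768, plus strand, TEAD motif: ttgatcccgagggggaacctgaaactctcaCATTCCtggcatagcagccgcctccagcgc

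Srf, which is known to regulate its own transcription, carried CArG boxes that began at -82 and -62 from its start site, and 1.63% of all 32851 promoters in the table held a CArG box. The TEAD motif began at -103 in Cyr61, at -65 in Amotl2 and at -210 and -123 in Ankrd1, against 14.66% of all promoters with the motif. F3 held AP-1 motifs at -146 and -135, and 7.81% of promoters held an AP-1 motif. Frmd6 had an E-box at -216, a motif found in 7.15% of promoters, and none of the 4 motifs lay in the window of Itga5. The stretches of Srf and Amotl2 lie before the start site given in the table but inside the span of the annotated gene. These matches describe the sequence and were not measured as bound sites.

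The libraries held 15431383 to 16355720 estimated counts, in 18624 to 18733 genes with a count. Markers of spermatids, spermatocytes, Sertoli cells and Leydig cells were present in every library, which fits the label testis, with 9179.48 to 12071.58 CPM (counts scaled to library size) summed over 4 spermatid markers. F0_3NC replicate 2 and F0_5251OV replicate 1 stood apart from the other libraries in the summed level of 4 spermatocyte markers, with 674.68 and 675.73 CPM against 462.09 to 533.44 CPM in the other 10. F0_5NC replicate 1 stood apart in Sertoli cell markers, with 203.76 CPM summed over 8 genes, where its companions had 142.38 and 139.18 CPM. In bulk tissue, fewer cells of a type and less RNA per cell cannot be told apart.

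Per unit of gene length, Srf and Ctgf were the most abundant members, with means over the 12 libraries of 12.49 and 11.68 RPKM (reads scaled to gene length and library size). Frmd6 (3.23 RPKM), F3 (2.99 RPKM) and Cyr61 (2.47 RPKM) followed, and the ranges of these 3 genes over the libraries overlapped. Amotl2 had 1.64 RPKM and Itga5 1.09 RPKM, while Myc and Thbs1 each had 0.88 RPKM. Ankrd1 was close to absent at 0.08 RPKM. At this depth Myc rested on 5 to 81 counts per library, and Srf on 505 to 806.

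**Figure D1:**
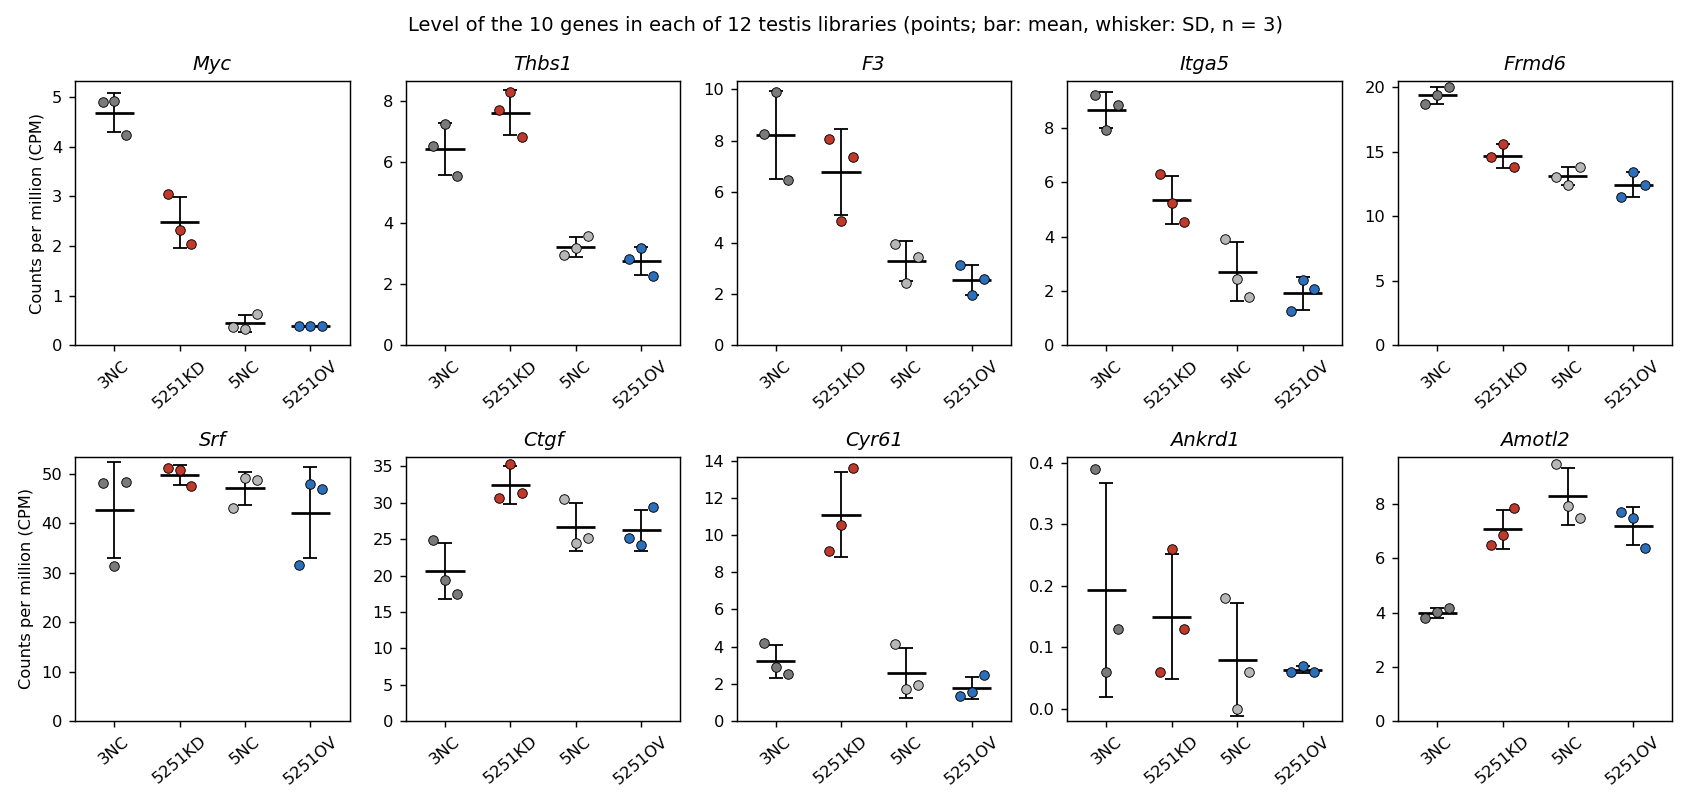
Level of each of the 10 genes in CPM (vertical axes, each on its own linear scale) in the 3 libraries of each group, with points for libraries, bars for means and whiskers for the SD (n = 3). Myc was between 2.04 and 4.93 CPM in the LV3 groups (F0_3NC and F0_5251KD) and between 0.33 and 0.64 CPM in the LV5 groups (F0_5NC and F0_5251OV), and Cyr61 was high in F0_5251KD alone among the 4 groups.

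Myc lies on chromosome 15 (61985341 to 61990361, plus strand). Its levels were 4.90, 4.93 and 4.23 CPM in F0_3NC and 3.05, 2.33 and 2.04 CPM in F0_5251KD. In F0_5NC they were 0.36, 0.33 and 0.64 CPM, and in F0_5251OV 0.38, 0.39 and 0.39 CPM. All 6 libraries on the LV3 backbone lay above all 6 on the LV5 backbone, and the F0_5251KD libraries lay below those of F0_3NC. Between the controls, which bear on the choice of the genes, the fitted level of Myc was higher in F0_3NC by 3.38 on the log2 scale (SE 0.275).

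The F0_5251KD and F0_5251OV libraries do not enter the comparison of the controls, but they repeat its contrast of LV3 with LV5. A difference that follows the backbone would appear in both comparisons. The p-values of F0_5251KD vs F0_5251OV are therefore not independent of the choice of genes. F0_5251KD and F0_5251OV differ in backbone and in insert, and whatever else follows the backbone cannot be told apart from it. Between them Myc was 6.32-fold higher in F0_5251KD (log2 fold change 2.66, SE 0.293, 95% interval 2.03 to 3.29, edgeR adjusted p = 0.000464). Against the control of its own backbone, F0_5251KD had less Myc by 0.92 on the log2 scale (0.53-fold, SE 0.222), and this difference did not pass the adjusted threshold (adjusted p = 0.666). That comparison shares the F0_3NC libraries with the comparison of the controls.

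Thbs1, F3 and Itga5 showed the same split between the backbones. Thbs1 lies on chromosome 2 (118111876 to 118127133, plus strand). It measured 6.51, 7.24 and 5.55 CPM in F0_3NC and 7.69, 8.30 and 6.83 CPM in F0_5251KD. The F0_5NC libraries gave 2.94, 3.17 and 3.58 CPM and the F0_5251OV libraries 2.82, 3.20 and 2.26 CPM. No library of the LV5 backbone reached the lowest LV3 library, and the groups within each backbone overlapped. Thbs1 was 2.75-fold higher in F0_5251KD than in F0_5251OV (log2 fold change 1.46, SE 0.174, adjusted p = 0.00103). A non-coding gene on the opposite strand, Gm29233, shares 110 exon bases with Thbs1. The counting is not stated to use strand, so reads of that stretch cannot be assigned to either gene.

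F3, on chromosome 3 (121723537 to 121735052, plus strand), encodes tissue factor, the membrane protein that starts the coagulation cascade after injury. Its levels were 8.25, 9.91 and 6.47 CPM in F0_3NC and 8.07, 4.86 and 7.34 CPM in F0_5251KD, against 3.96, 2.44 and 3.45 CPM in F0_5NC and 3.13, 1.96 and 2.58 CPM in F0_5251OV. F3 was more variable than Thbs1 within F0_5251KD, although its lowest library there still exceeded every LV5 library. F3 was 2.63-fold higher in F0_5251KD than in F0_5251OV (log2 fold change 1.40, SE 0.256, adjusted p = 0.0383). The F3 promoter stretch with its AP-1 motifs is printed above.

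Itga5 lies on chromosome 15 (103344286 to 103366791, minus strand). The F0_3NC libraries had 9.21, 7.91 and 8.85 CPM and the F0_5251KD libraries 6.29, 5.25 and 4.53 CPM. Levels in F0_5NC were 3.90, 2.44 and 1.79 CPM, and in F0_5251OV 1.25, 2.41 and 2.07 CPM. Its order of groups was that of Myc, with F0_3NC highest, F0_5251KD below it without overlap, and the LV5 groups lowest and overlapping each other. Itga5 was 2.80-fold higher in F0_5251KD than in F0_5251OV (log2 fold change 1.49, SE 0.278, adjusted p = 0.0442). In F0_5251KD vs F0_3NC its log2 fold change was -0.69 (SE 0.247, adjusted p = 0.897).

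The calls of F3 and Itga5 lay close to the threshold and were mostly lost whichever library was left out. When each of the 6 libraries of F0_5251KD vs F0_5251OV was left out in turn, Myc, Thbs1 and Cyr61 stayed past the threshold in all 6 fits. F3 stayed in 1 of them (without F0_5251KD replicate 2) and Itga5 in 0. The lowest log2 fold change in these fits was 1.24 for F3 (without F0_5251OV replicate 2) and 1.26 for Itga5 (without F0_5251OV replicate 1). The highest adjusted p was 0.243 for F3 and 0.253 for Itga5, both without F0_5251KD replicate 1. Calls were also lost where the log2 fold change rose. F3 had 1.57 without F0_5251OV replicate 1 (edgeR adjusted p = 0.0695). Itga5 had 1.69 without F0_5251OV replicate 2 (edgeR adjusted p = 0.0735).

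Frmd6 encodes a FERM domain protein that has been placed upstream of the Hippo kinases. The gene lies on chromosome 12 (70825456 to 70902234, plus strand). It had 18.69, 19.40 and 20.02 CPM in F0_3NC and 14.55, 15.62 and 13.80 CPM in F0_5251KD. The LV5 groups had 13.06, 12.42 and 13.82 CPM (F0_5NC) and 11.47, 13.44 and 12.41 CPM (F0_5251OV). F0_3NC alone stood apart from all other groups, and the lowest F0_5251KD library (13.80 CPM) lay just under the highest F0_5NC library (13.82 CPM). F0_5251KD lay above F0_5251OV without overlap, by a small margin (13.80 against 13.44 CPM for the nearest libraries). The log2 fold change was 0.24 in F0_5251KD vs F0_5251OV (SE 0.101, 95% interval 0.02 to 0.45, adjusted p = 0.815) and -0.40 in F0_5251KD vs F0_3NC (SE 0.0992, adjusted p = 0.708).

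Cyr61 (also named Ccn1) and Ctgf (Ccn2) encode secreted matricellular proteins of the CCN family and are classical targets of both SRF and YAP. Cyr61 lies on chromosome 3 (145646971 to 145649985, minus strand). Its levels were 9.15, 10.57 and 13.60 CPM in F0_5251KD, but 4.19, 2.92 and 2.51 CPM in F0_3NC. The LV5 groups gave 4.14, 1.72 and 1.92 CPM (F0_5NC) and 1.32, 1.57 and 2.46 CPM (F0_5251OV). Every F0_5251KD library was thus above every other library, whereas the controls overlapped. Cyr61 was 6.23-fold higher in F0_5251KD than in F0_5251OV (log2 fold change 2.64, SE 0.332, 95% interval 1.92 to 3.35, adjusted p = 0.00153). Within the LV3 backbone the level in F0_5251KD was 3.46 times that in F0_3NC (log2 fold change 1.79, SE 0.310), which missed the adjusted threshold in edgeR (adjusted p = 0.118). The adjusted p of that difference ran from 0.000146 to 0.608 over the other ways of fitting it.

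Ctgf, on chromosome 10 (24595442 to 24598683, plus strand), had 24.94, 19.40 and 17.51 CPM in F0_3NC and 30.63, 35.40 and 31.30 CPM in F0_5251KD. In F0_5NC it had 30.50, 24.45 and 25.14 CPM, and in F0_5251OV 25.13, 24.15 and 29.40 CPM. F0_5251KD was again the highest group, by a small margin over the LV5 groups (30.63 against 30.50 CPM for the nearest libraries). The log2 fold change was 0.65 in F0_5251KD vs F0_3NC (SE 0.139, adjusted p = 0.363) and 0.31 in F0_5251KD vs F0_5251OV (SE 0.137, adjusted p = 0.817). The antisense gene Gm15270 shares 347 exon bases with Ctgf, and 0 to 7 counts per library were assigned to it.

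Amotl2, on chromosome 9 (102717091 to 102733418, plus strand), encodes an angiomotin that binds YAP and is itself induced by it. It ran against Myc. The F0_3NC libraries were the lowest of all, at 3.80, 4.01 and 4.16 CPM, and those of F0_5251KD had 6.48, 6.87 and 7.86 CPM. The F0_5NC libraries had 9.47, 7.93 and 7.48 CPM and the F0_5251OV libraries 7.71, 7.51 and 6.40 CPM. Only F0_3NC lay apart, since F0_5251KD overlapped both LV5 groups. Amotl2 had a log2 fold change of 0.82 in F0_5251KD vs F0_3NC (1.77-fold, SE 0.147, adjusted p = 0.124) and of -0.03 in F0_5251KD vs F0_5251OV (95% interval -0.33 to 0.28). Cyr61, Ctgf and Amotl2 therefore shared a higher level in F0_5251KD than in F0_3NC, without overlap, but not their order in the other groups.

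Srf, on chromosome 17 (46546838 to 46558267, minus strand), had the highest mean RPKM of the 10 genes over the 12 libraries. In F0_5251KD alone the mean of Ctgf was higher (14.31 against 13.64 RPKM). Srf measured 48.20, 31.44 and 48.49 CPM in F0_3NC and 51.22, 50.76 and 47.58 CPM in F0_5251KD. The LV5 groups had 43.21, 49.29 and 48.87 CPM (F0_5NC) and 31.65, 48.10 and 46.91 CPM (F0_5251OV). The low values of 31.44 and 31.65 CPM came from F0_3NC replicate 2 and F0_5251OV replicate 1, the libraries with the high spermatocyte markers, and the other 10 libraries lay between 43.21 and 51.22 CPM. The part of the spermatocyte markers in the level of Srf was not tested. The log2 fold change of Srf in F0_5251KD vs F0_5251OV was 0.24 with all libraries (SE 0.168, 95% interval -0.12 to 0.60, adjusted p = 0.914) and 0.07 without F0_5251OV replicate 1. In F0_5251KD vs F0_3NC it was 0.22 with all libraries and 0.05 without F0_3NC replicate 2.

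Ankrd1, on chromosome 19 (36111965 to 36119844, minus strand), encodes an ankyrin repeat protein of stretched muscle. It had 6, 1 and 2 counts in F0_3NC and 1, 4 and 2 counts in F0_5251KD, while F0_5NC had 3, 0 and 1 counts and each F0_5251OV library had 1 count. These 23 counts over 12 libraries did not pass the filter on low counts. Without the filter its log2 fold change was 1.13 in F0_5251KD vs F0_5251OV (SE 1.01), -0.33 in F0_5251KD vs F0_3NC (SE 0.839) and -0.36 in F0_5251OV vs F0_5NC (SE 1.11). Differences of this size could not be resolved at this depth. The count of 0 in F0_5NC replicate 2 allows up to 0.198 CPM (3 counts, counting error only).

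Of the 10 members, 9 passed the filter on low counts and were fitted. In F0_5251KD vs F0_5251OV, 5 of the 9 (Myc, Thbs1, F3, Itga5 and Cyr61) were past the adjusted threshold, all higher in F0_5251KD. Of all 16296 genes tested, 0.295% were called in that comparison, of which 0.288% of the tested genes were higher and 0.00614% lower. The groups did not overlap for 7 of the 9 members, against 13.1% of all genes, and 7 of the 9 had an unadjusted p under 0.05, against 6.01% of all genes. The median log2 fold change of the 9 genes was 1.40, and that of all genes was -0.004. Since the genes were listed with earlier results of these data known, these shares describe the listed genes and are not a test of the group.

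Whether knockdown of lncRNA5251 altered the genes within its own backbone is addressed by F0_5251KD vs F0_3NC. None of the 9 genes was called by edgeR (0 of 9, against 0.0245% of all genes), while 6 of the 9 had an unadjusted p under 0.05, against 4.74% of all genes. DESeq2 called 3 of them (Cyr61, Ctgf and Amotl2, all higher), out of 20 genes called among 16296. An edgeR fit of only these groups called Cyr61, 1 of 5 genes called among 15869. The groups did not overlap for 6 members, against 11.8% of all genes. Cyr61, Ctgf and Amotl2 lay higher in F0_5251KD, and Myc, Itga5 and Frmd6 lay lower. The members thus did not move as a block. Of these 6 genes, 4 (Myc, Itga5, Frmd6 and Amotl2) also had non-overlapping controls, and both comparisons share the F0_3NC libraries.

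Overexpression was examined in F0_5251OV vs F0_5NC, where edgeR called 0 of the 9 genes and 0 genes in all (0%). No member had an unadjusted p under 0.05, against 8.77% of all genes, and DESeq2 called 0 members and 30 genes. The groups overlapped for all 9 members, where 13.9% of all genes did not overlap. The fitted log2 fold changes were all below 0, from -0.55 for Cyr61 (SE 0.357, 95% interval -1.32 to 0.22) to -0.03 for Ctgf (SE 0.138), with adjusted p of 0.615 to 0.963. Those of Srf and Ctgf changed sign without F0_5251OV replicate 1, that of Ctgf also without F0_5251OV replicate 2 or F0_5NC replicate 1, and that of Myc without F0_5NC replicate 3. Without F0_5NC replicate 1, the library high in Sertoli cell markers, the value of Cyr61 was -0.036. For Myc, with 5 to 10 counts in these libraries, the interval of -0.98 to 0.59 shows how little this depth can resolve. Values below 0 were also common outside the members. Of 114 further genes of the same pathways, 31 had higher fitted values in F0_5251OV. So did 0 of 7 Leydig, 0 of 8 Sertoli, 0 of 7 endothelial and 1 of 6 macrophage markers, but 3 of 4 spermatocyte and 4 of 4 spermatid markers. The part of cell types in the members was not tested.

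**Figure D2:**
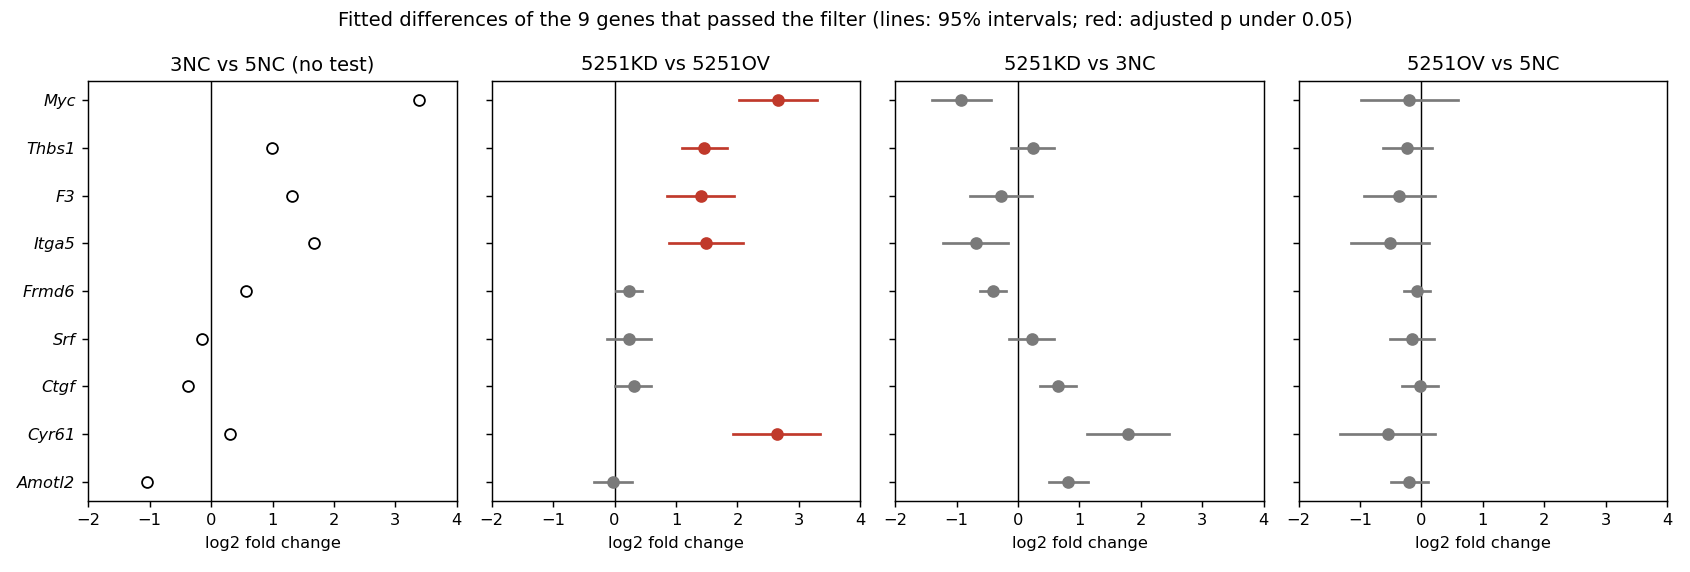
Fitted log2 fold change (horizontal axes) of the 9 genes that passed the filter in the comparison of the controls (open points, described without a test) and in the 3 tested comparisons (points with 95% intervals, red where the adjusted p was under 0.05). Myc, Thbs1, F3, Itga5 and Cyr61 are red in F0_5251KD vs F0_5251OV, and no gene is red in the comparisons within a backbone.

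In the controls, whose difference was used in choosing the genes, F0_3NC lay above F0_5NC without overlap for Myc, Itga5, F3, Thbs1 and Frmd6, and below it for Amotl2. The groups overlapped for Srf, Ctgf and Cyr61. This made 6 of 9 members with no overlap, where the share over all genes was 17.0%. The fitted log2 differences were 1.67 for Itga5 (SE 0.262), 1.32 for F3 (SE 0.247), 0.99 for Thbs1 (SE 0.172) and 0.56 for Frmd6 (SE 0.0998). They were 0.30 for Cyr61, -0.14 for Srf, -0.37 for Ctgf and -1.05 for Amotl2 (SE 0.146). Without single libraries the value of Cyr61 ran from 0.066 to 0.810 (the highest without F0_5NC replicate 1), and that of Srf from -0.244 to 0.040, above 0 only without F0_3NC replicate 2. No test is given for these values.

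The other genes of the same pathways were read from 8 lists that hold 120 further genes, of which 114 were tested. In F0_5251KD vs F0_5251OV, 3 of the 114 were called (Thbd, Tagln and Nuak2), where 0.295% of all genes were called. All 3 were higher in F0_5251KD, and the median over the 114 was 0.11. Within either backbone 0 of the 114 were called, with medians of 0.03 in F0_5251KD vs F0_3NC and -0.14 in F0_5251OV vs F0_5NC. Of all genes, 0.0245% and 0% were called in these comparisons. When each library was left out in turn, Tagln stayed past the threshold in all 6 fits. Nuak2 stayed in 4 (lost without F0_5251KD replicate 1 or F0_5251OV replicate 2) and Thbd in 3 (lost without F0_5251KD replicate 1, F0_5251OV replicate 1 or F0_5251OV replicate 3), with highest adjusted p of 0.0645 and 0.091.

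Of the 20 SRF and MRTF target genes tested, 18 had higher fitted values in F0_5251KD than in F0_5251OV, with a median of 0.31. Markers of somatic cells mostly lay the same way. Higher fitted values were seen for 7 of 7 Leydig, 8 of 8 Sertoli and 7 of 7 endothelial markers (medians 0.36, 0.13 and 0.22). They were seen for 5 of 6 peritubular (median 0.37), 4 of 6 macrophage, 2 of 4 spermatid and 1 of 4 spermatocyte markers. The part of cell types in the gene lists was not tested. Of the SRF and MRTF targets only Tagln was called. Tagln, an actin-binding protein of smooth muscle, had 16.23 ± 2.09 CPM in F0_5251KD and 8.12 ± 1.22 CPM in F0_5251OV (SD, n = 3, log2 fold change 1.0, SE 0.141, edgeR adjusted p = 0.00455). Among 6 genes for SRF cofactors, 0 were called, and the highest fitted value was that of the cofactor Myocd (0.99, SE 0.354, adjusted p = 0.624).

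Of the 15 YAP/TEAD targets tested, 1 was called, the kinase gene Nuak2 (8.31 ± 0.43 CPM against 4.28 ± 0.34 CPM, log2 fold change 0.96, SE 0.144, adjusted p = 0.00804), and the median was 0.12. The 18 Hippo pathway genes had a median of 0.10 and 0 calls, and the largest value was that of Wwtr1, which encodes TAZ (0.41, SE 0.230, adjusted p = 0.880).

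Around MYC, 0 of the 12 genes of its dimerisation network and 0 of 20 target genes were called. Their medians were 0.05 and 0.02 in F0_5251KD vs F0_5251OV, the comparison in which Myc itself was 6.32-fold higher. These are levels of bulk tissue, where a response in a minor cell type could go unseen, and such a response was not tested. The target with the largest value was Rcl1 (0.37, SE 0.153, adjusted p = 0.788).

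Of the 11 genes of coagulation and fibrinolysis tested, 10 had higher fitted values in F0_5251KD than in F0_5251OV, with a median of 0.22. Most of the somatic markers above lay the same way. Of the 11 genes, 1 was called. Thrombomodulin (Thbd), an endothelial anticoagulant receptor, had 8.12 ± 2.55 CPM against 2.83 ± 0.56 CPM (log2 fold change 1.52, SE 0.245, adjusted p = 0.0135). The urokinase receptor gene Plaur had the largest value of the list, 2.68 (SE 0.694), at 1.0 ± 0.34 against 0.15 ± 0.16 CPM, and was not called (adjusted p = 0.250). Of the 13 matricellular and integrin genes tested, 0 were called.

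The list of 22 immediate early genes differed from these pathways. Like the members, it was drawn up with earlier results of these data known, so its counts are not a test of the list. In F0_5251KD vs F0_5251OV all 22 had higher fitted values in F0_5251KD, with a median of 2.01. Of the 22, 15 were called, where 48 of all 16296 genes (0.295%) were called. Their summed level was 649.44 to 719.60 CPM in F0_5251KD and 441.33 to 506.82 CPM in F0_3NC, and it was 325.01 to 334.90 CPM in F0_5NC and 265.76 to 344.88 CPM in F0_5251OV. The sum was thus highest in F0_5251KD, as Cyr61 was, whereas Myc and Itga5 were highest in F0_3NC. Unlike Cyr61, whose controls overlapped, the sum was higher in every LV3 library than in every LV5 library. In F0_5251KD vs F0_3NC 4 of the 22 were called (Btg2, Egr1, Zfp36 and Fos, all higher). They were the only genes called among all 16296 in that comparison (0.0245%). Of the 22, 19 had higher fitted values, with a median of 0.52, and the lowest was that of Socs3, a cytokine signalling inhibitor, at -1.0 (SE 0.247, 5.49 ± 1.49 against 10.95 ± 3.44 CPM, SD, n = 3, edgeR adjusted p = 0.708).

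**Figure D3:**
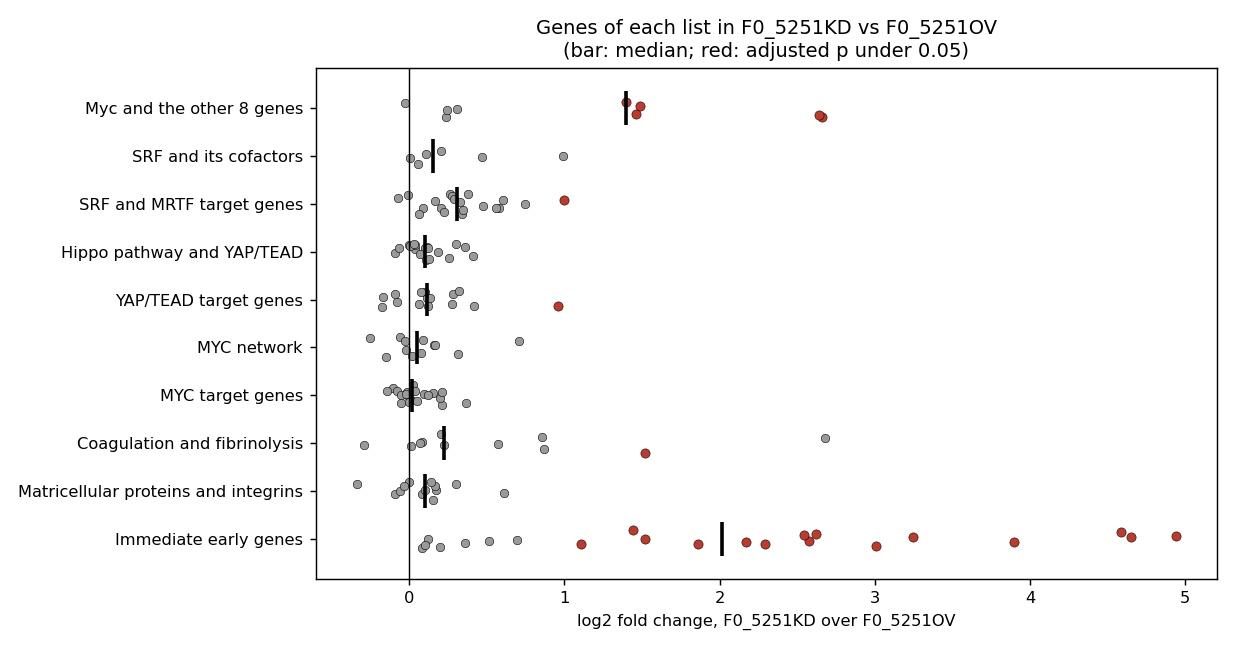
Log2 fold change of F0_5251KD over F0_5251OV (horizontal axis) for the 9 tested members and for the tested genes of 9 lists, members left out, with 1 point per gene, black bars for medians and red for an adjusted p under 0.05. The median was 1.40 for the members and 2.01 for the immediate early genes, and it lay between 0.02 and 0.31 for the 8 pathway lists.

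The genes whose level over the 12 libraries was most like that of Myc were Ccl2 (Pearson r = 0.97), Socs3 (0.97), Cx3cl1 (0.96), Medag (0.96) and Nr4a3 (0.95), on log2(CPM + 1), among 15169 genes. Ccl2 and Cx3cl1 encode chemokines, Medag a protein of fat cell differentiation and Nr4a3 a nuclear receptor of the immediate early class. Ccl2 had 3.17 ± 0.57 CPM in F0_3NC and 1.19 ± 0.29 CPM in F0_5251KD, against 0.12 ± 0.12 CPM in F0_5NC and 0.19 ± 0.06 CPM in F0_5251OV (SD, n = 3), the same order of backbones as Myc. Of the members, Itga5 (0.93), F3 (0.92), Frmd6 (0.91) and Thbs1 (0.88) were close to Myc, and Cyr61 (0.46), Srf (-0.01), Ctgf (-0.30) and Amotl2 (-0.83) were not. These coefficients describe 12 libraries that fall into 2 levels by backbone, and no p-value is attached.

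Markers of other cells were summed in each library. Of 7 epididymis markers 5 were in the table, and their summed level was 4.38 to 10.64 CPM in F0_3NC and 5.02 to 6.48 CPM in F0_5251KD, against 17.50 to 117.21 CPM in F0_5NC and 10.86 to 79.54 CPM in F0_5251OV. The sums did not overlap between the backbones, by a small margin (10.64 against 10.86 CPM), and 0 of the 4 tested markers were called in any of the tested comparisons. Crisp1 ran from 0.06 to 93.82 CPM over the libraries. In F0_5NC the sums of 17.50, 117.21 and 108.22 CPM stood beside 0.36, 0.33 and 0.64 CPM of Myc, and in F0_5251OV the sums of 79.54, 59.58 and 10.86 CPM stood beside 0.38, 0.39 and 0.39 CPM. Their part in the level of Myc was not tested.

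Red cell markers (5 of 5 in the table) summed to 68.85 to 106.69 CPM in F0_5251KD and 37.17 to 46.53 CPM in F0_5251OV, with 53.88 to 62.49 CPM in F0_3NC and 44.97 to 66.10 CPM in F0_5NC, and the haemoglobin genes Hba-a2, Hbb-bs and Hbb-bt were each at 0 in 1 library. Their part in the levels of F3, Thbs1 and Cyr61 was not tested. Platelets carry thrombospondin 1, and their 4 markers summed to 3.05 to 4.02 CPM in F0_5251KD and 1.82 to 2.94 CPM in F0_5251OV, but to 2.84 to 4.10 CPM in F0_3NC and 2.94 to 4.49 CPM in F0_5NC. The defining markers Ppbp and Gp9 were at 0 in 6 and 5 of the 12 libraries. Endothelial markers (7 genes) summed to 43.11 to 47.40 CPM in F0_5251KD and 34.66 to 41.05 CPM in F0_5251OV, with 35.94 to 40.36 CPM in F0_3NC and 40.94 to 46.74 CPM in F0_5NC. The part of platelet and endothelial markers in these results was not tested.

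Peritubular smooth muscle markers (6 genes) overlapped between F0_5251KD (336.27 to 351.40 CPM) and F0_5251OV (317.46 to 359.01 CPM), although Tagln, which is also in the SRF list, was called. Summed Sertoli markers (8 genes) were 139.59 to 143.67 CPM in F0_5251KD and 122.89 to 133.19 CPM in F0_5251OV, without overlap, and 0 of them were called. The endothelial, red cell and platelet sums given above were also higher in F0_5251KD than in F0_5251OV without overlap. The part of Sertoli cell markers in these results was not tested. For Leydig cells (7 genes, 1944.42 to 3026.02 against 1431.80 to 2089.24 CPM), macrophages (6 genes, 65.22 to 76.77 against 63.04 to 69.51 CPM), mesothelium (3 genes, 0.45 to 2.10 against 0.97 to 1.70 CPM) and spermatogonia (4 genes, 60.42 to 71.87 against 52.60 to 65.87 CPM) the sums of these groups overlapped.

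**Figure D4:**
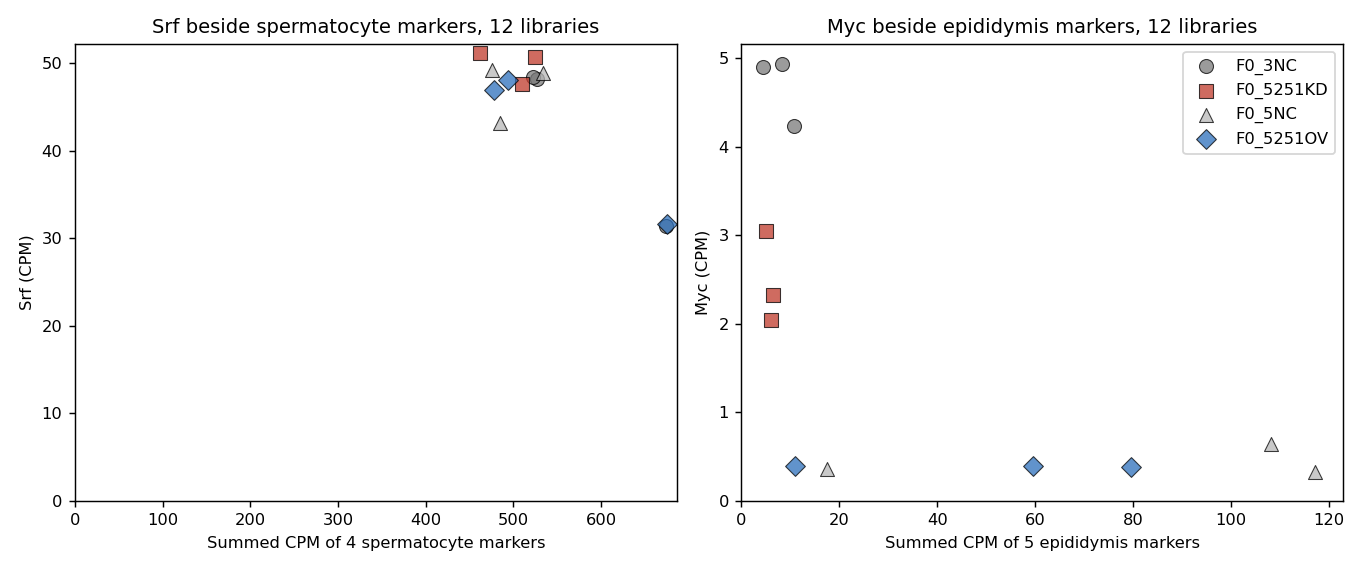
Left, Srf (CPM) against the summed CPM of 4 spermatocyte markers, and right, Myc (CPM) against the summed CPM of 5 epididymis markers, with 1 point per library and a colour and shape for each group. Overlapping points at 674.68 and 675.73 CPM are the libraries with Srf at 31.44 and 31.65 CPM. On the right, the LV5 libraries lie at 0.33 to 0.64 CPM of Myc and epididymis sums of 10.86 to 117.21 CPM, and the LV3 libraries at 2.04 to 4.93 CPM and sums of 4.38 to 10.64 CPM. The relation was not tested.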

How the data were processed

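RNA of 12 testis libraries was sequenced by the authors, 3 for each of 4 groups, and groups were taken from the sample labels. The deposited table holds estimated counts (expected counts, 12.0% not whole at a tolerance of 1e-06, rounded here) and RPKM values made by the authors per gene and library. The study's methods name SOAPaligner 2.20, and the submitters' processing notes give the genome build mm10. The counting tool and its strand setting were not given in any source read here. Mean columns and 18 columns of other samples were not used. The written design named FPKM, and the RPKM columns were used in its place. Counts were tested in edgeR 4.0.16 (R 4.3.3) with TMM scaling (factors 0.97 to 1.078), filterByExpr and the quasi-likelihood F test (two-sided). All 12 libraries entered 1 model, which left 8 residual degrees of freedom. The p-values were adjusted by Benjamini-Hochberg over 16296 genes, with a threshold of 0.05. CPM used the TMM-scaled library sizes. Alternatives were DESeq2 1.42.0, limma 3.58.1 on log2(RPKM + 1) and log2(RPKM + 0.1), which understates changes of low genes, other scaling and filters, a replicate block, fits of only the groups compared and leaving out each library. The scripts were tested on simulated data. No libraries of a group agreed within sampling noise (chi-square per gene 3.84 to 21.36). Genes named were the 10 members, the called (at most 3 by smallest p), lowest or highest genes of each list, and the 5 genes most like Myc among those with a mean of at least 1 CPM; lists with more calls are given by number. The members and lists were chosen with earlier results of these data known. A gene of the coagulation list is not reported here and was left out of that list's counts and medians.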

Additional observations from a re-analysis of the deposited data

How the results depend on the processing

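In F0_5251KD vs F0_3NC, edgeR called 4 genes and 0 of the 9 members. DESeq2 called 20 genes and 3 members, limma on log2(RPKM + 1) 2 genes and on log2(RPKM + 0.1) 0 genes. The fit of only these groups called 5 genes and 1 member. Leaving out each library gave 0 to 4 genes and 0 members. In F0_5251OV vs F0_5NC, edgeR called 0 genes (1429 at an unadjusted p under 0.05) and DESeq2 30. The fit without a filter on low counts called 3, the fit of only these groups 3, and leaving out each library 0 to 1. All of these fits called 0 members. Myc did not pass the filter in the fit of only these groups and was not tested there. In F0_5251KD vs F0_5251OV, 48 genes became 103 with DESeq2 and 29 to 43 without single libraries, and 5 members became 3 under both limma fits and 3 to 4 without single libraries. Myc, Thbs1 and Cyr61 were called in all 14 alternatives, F3 in 6 and Itga5 in 5. In the tested comparisons, values that crossed 0, none of them called, were in F0_5251OV vs F0_5NC Myc at 0.16 (without F0_5NC replicate 3), Srf at 0.012 (without F0_5251OV replicate 1) and Ctgf at 0.079 (without F0_5NC replicate 1), 0.003 and 0.030 (without F0_5251OV replicates 1 and 2), and in F0_5251KD vs F0_5251OV Amotl2 at 0.028 (without F0_5251KD replicate 1), 0.025 and 0.003 (without F0_5251OV replicates 1 and 2). Without single libraries these values otherwise reached -0.361 for Myc, -0.263 for Srf, -0.117 for Ctgf and -0.113 for Amotl2. In the controls, which were not tested, Srf crossed 0 without F0_3NC replicate 2 (0.040). The causes were not tested. Depth limits Myc in the LV5 groups (5 to 10 counts) and Ankrd1.

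The deviations of libraries with the same replicate number correlated at -0.15 to 0.03 over all genes. These values show no clear shared deviation and do not settle whether the libraries were paired. With the number as a replicate block, 2 genes and 0 members were called in F0_5251KD vs F0_3NC, 0 genes in F0_5251OV vs F0_5NC, and 40 genes and 4 members in F0_5251KD vs F0_5251OV, where Itga5 was not called (adjusted p = 0.0948).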
